A study of Mus musculus with 8 samples.

Results

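The genes followed here are those that carry out or restrain apoptosis, pyroptosis and inflammasome assembly, compared between kidneys of cisplatin-treated and control mice. They were taken by name, and the names were settled with earlier results of these data known. They are the protein-coding genes called Casp followed by a number, Bcl2 and its relatives (Bak1, Bad, Bid, Bik, Bok, Mcl1), the gasdermins (Gsdm), the NLR genes (Nlrp, Nlrc, Nlrx), the Naip, Aifm and Dff genes, Pycard and Cflar. The 49 described here had usable counts in the deposited table, among 35880 usable rows, of which 12286 were protein-coding genes. Another 25 genes of these names, including Casp8, Gsdmd, Mlkl, Zbp1, Casp4, Casp6, Diablo and Dffb, stood in rows with 10 values for 8 named libraries and were not analysed here.

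Kidney RNA was sequenced in bulk from 4 control and 4 cisplatin-treated mice, each mouse giving 1 library. The labels give the genotype as WT for both groups, tissue as kidney and treatment as control or cisplatin. The study's methods describe male C57/BL6J mice of unstated age, saline alone for controls and an intraperitoneal cisplatin dose of 23 mg/kg, with kidneys taken 72 h after injection. The tissue was sequenced in bulk, so that fewer cells of a type and less RNA per cell cannot be told apart in any value given here. Whether whole kidney or a part of it was sequenced is not stated in the sources used here. Control libraries are numbered 1, 2, 3 and 5 in the labels and cisplatin libraries 1, 3, 4 and 6, and values are listed in that order throughout.

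Totals over the usable rows ranged from 10953338 to 16701599 counts a library, and these totals cover part of each library. Levels are given as CPM, read counts brought to one library size by TMM scaling (the trimmed mean of M values, which equalizes libraries on the bulk of their genes). Levels of different genes are set beside each other only as RPKM, which is CPM per 1000 bases of the gene length in the table. On the second principal component, with 15.96% of the variance against 73.6% on the first, control 5, cisplatin 4 and cisplatin 6 lay apart from the other 5 libraries. These 3 libraries are called the second library set here, and the other 5 the first. The grouping was read from these expression values and is not in the labels. Calls with the set as covariate, or in the first set alone, are therefore not independent of the values. In addition, 2 genes of the Y chromosome, Kdm5d and Eif2s3y, had at most 3 counts in cisplatin 1 and cisplatin 3 and at least 274 in each of the other 6 libraries, although the methods name male mice, so calls that are lost or gained without that pair are given.

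Apoptosis is the orderly death of a cell by caspases, proteases that are made as inactive precursors. In its mitochondrial route the BCL-2 family decides whether the outer mitochondrial membrane is opened: guardians such as BCL-2, BCL-XL and MCL-1 hold the pore formers BAK and BAX in check, and BH3-only proteins such as BIM, BID, PUMA and NOXA release them. Cytochrome c then assembles APAF1 and the initiator caspase encoded by Casp9, which activates further caspases. Pyroptosis is a lytic death in which a cleaved gasdermin perforates the plasma membrane, often after an inflammasome, a sensor joined to the adaptor ASC (Pycard), has activated the caspase encoded by Casp1. Cisplatin forms DNA adducts and is taken up by the proximal tubule, the segment of the kidney that it injures most.

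Since levels of RNA are compared here, the sequence in front of the start site is shown for 4 of the genes. The windows hold the 250 bases before the start site in the RefSeq annotation of GRCm38.p6. Nlrp6 (chr7:140920652-140920901, plus strand) and Aifm3 (chr16:17489427-17489676, plus strand) are shown because they had the lowest fold changes, Bcl2a1a (chr9:88956670-88956919, plus strand) because it is the other tested gene with an AP-1 motif, and Casp14 (chr10:78718294-78718543, minus strand) because it was counted in no control. Capitals mark the AP-1 motif TGANTCA in the first 3 sequences and the partial HNF1 motif GTTAAT in the fourth, and each sequence reads 5′ to 3′ toward its gene.
Nlrp6: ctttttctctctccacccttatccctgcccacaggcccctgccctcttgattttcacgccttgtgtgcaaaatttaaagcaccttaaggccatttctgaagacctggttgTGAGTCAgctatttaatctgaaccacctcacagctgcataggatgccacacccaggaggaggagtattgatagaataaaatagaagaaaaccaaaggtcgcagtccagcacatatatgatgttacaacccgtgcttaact
Aifm3: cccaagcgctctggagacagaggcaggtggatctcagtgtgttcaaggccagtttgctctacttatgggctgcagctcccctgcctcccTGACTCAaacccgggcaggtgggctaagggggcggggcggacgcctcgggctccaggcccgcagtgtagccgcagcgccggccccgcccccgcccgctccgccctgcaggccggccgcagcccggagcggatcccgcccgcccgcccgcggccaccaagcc
Bcl2a1a: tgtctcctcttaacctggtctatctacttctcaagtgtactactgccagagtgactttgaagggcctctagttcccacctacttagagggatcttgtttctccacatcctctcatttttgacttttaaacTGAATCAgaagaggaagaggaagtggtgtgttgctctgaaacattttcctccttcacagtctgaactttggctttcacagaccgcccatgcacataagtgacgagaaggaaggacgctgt
Casp14: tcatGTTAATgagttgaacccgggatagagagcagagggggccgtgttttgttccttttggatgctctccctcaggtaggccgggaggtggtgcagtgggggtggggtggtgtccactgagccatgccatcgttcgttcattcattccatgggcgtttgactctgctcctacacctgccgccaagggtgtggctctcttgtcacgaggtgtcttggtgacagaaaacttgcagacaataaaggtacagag
The AP-1 motif began 140 bases before the start site of Nlrp6, 161 before that of Aifm3 and 120 before that of Bcl2a1a, and the partial HNF1 motif began 246 bases before that of Casp14.

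Windows of 300 bases, 250 before to 50 after each start site, were found for 43 of the 49 genes, and 39 windows belonged to 32 genes that were tested. Both strands were searched, and a match only describes the letters. AP-1 stood in the windows of Nlrp6, Aifm3 and Bcl2a1a and in 7.81% of all 32851 windows in the table. The p53 response element, a pair of sites at most 13 bases apart, stood in 0.0731% of all windows and in none of these 39. A single site of that pair stood in the windows of Pycard, Nlrp3 and Naip6 and in 8.36% of all windows. The core of the interferon-stimulated response element, GAAANNGAA, stood in those of Cflar and Naip2 (8.56% of all), and the GAS motif TTCNNNGAA in those of Casp12 and Nlrx1 (8.30% of all). The NF-kB core GGGANNTTC stood in none of the 39 (3.94% of all), the partial HNF1 motif in those of Casp14 and Bcl2l15 (7.10% of all) and the partial HNF4 motif CAAAGTCC in that of Nlrc4 (1.42% of all). No motif spelled here overlapped another in the windows printed.

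Of the 49 genes, 35 passed edgeR's filter on low counts and were tested, over all 9141 genes that passed. A gene was called when the Benjamini-Hochberg adjusted p was under 0.05 and the log2 fold change was at least 1 in size, by edgeR's quasi-likelihood test. After cisplatin 10 of the 35 were called up and 4 down, against 19.2% up and 15.7% down among all tested genes. The genes that rose came from the guardians (Bcl2l1, Bcl2a1a), the pore formers (Bak1), the BH3-only genes (Bcl2l11), the gasdermins (Gsdma, Gsdmc2, Gsdmc3) and 3 others (Bcl2l14, Bcl2l15, Casp14). Bid, Aifm1, Aifm3 and Nlrp6 fell. In 8 of the 35 all 4 cisplatin-treated kidneys lay above all 4 controls and in 6 they lay below, where 23.7% and 22.5% of all tested genes did so, 46.3% together. Casp14 and Gsdma passed the filter only through the treated kidneys, so passing it fixed their direction in the calls and in this count. Bcl2a1a, whose controls alone were too low for the filter, also passed through the treated kidneys, which favoured the direction of its call. In either direction 14 of the 35 were called, beside 34.9% of all tested genes, and 17 passed the adjusted p at any size, beside 49.1%. The median log2 fold change was 0.26 over the 35 genes and 0.08 over all tested genes. Without cisplatin 1 and cisplatin 3 the calls were 7 up and 5 down, beside 1984 up and 1899 down over all tested genes. With all libraries the latter were 1754 and 1434. With the 3 libraries of the second set as a covariate the calls were 12 up and 5 down, beside 1763 and 1518 over all tested genes.

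Of the 14 genes that were not tested, 10 had 0 counts in all 8 libraries. They were Nlrp2, Nlrp4a, Nlrp4b, Nlrp4e, Nlrp5, Nlrp9a, Nlrp9c, Nlrp14, Gsdmc and Bcl2a1c. The other 4, Bcl2l10, Gsdma3, Nlrp4c and Nlrp9b, had at most 2 counts in any library. At these totals 3 counts, taken as the lowest level that can be told from 0, corresponded to between 0.136 and 0.266 CPM. Many of these Nlrp genes are known from oocytes and early embryos.

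**Figure D1:**
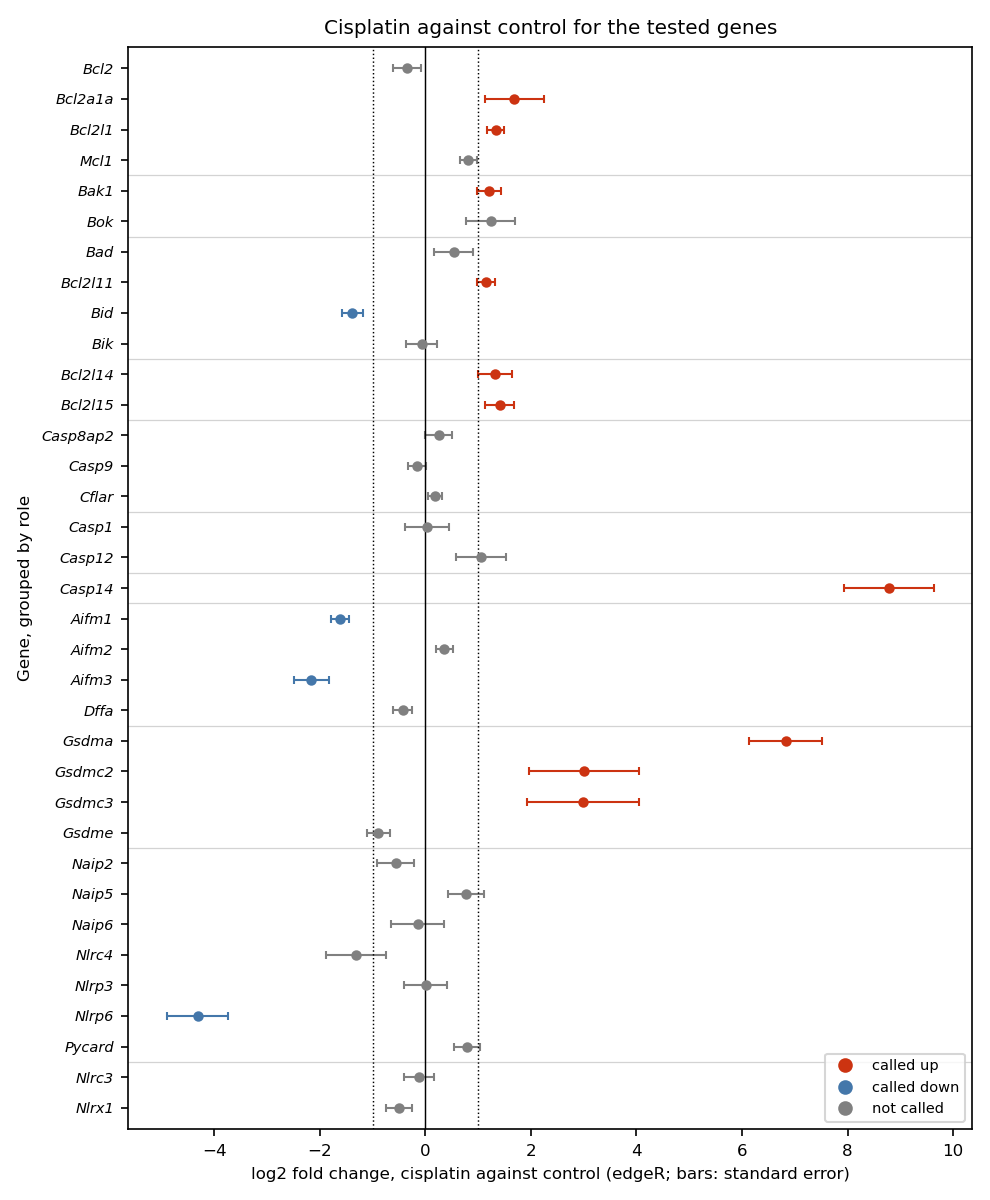
Log2 fold change (x axis, edgeR) of the 35 tested genes, cisplatin against control, grouped by role with grey lines, with bars for the standard error and dotted lines at 1 and -1. Genes called up are red, called down blue and the rest grey. Nlrp6 lies farthest left at -4.32, and the point for Casp14 is a fitted value against controls with 0 counts, so its place is not a measured fold.

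Expressed per length, the order of the genes changed with treatment. In controls the highest mean levels were those of Mcl1 (76.2 RPKM), Nlrp6 (65.2), Aifm1 (63.3), Bcl2l1 (44.4) and Bid (38.01). After cisplatin they were those of Mcl1 (133 RPKM), Bcl2l1 (112), Bak1 (34.7), Bok (32.5) and Bad (20.97). Nlrp6 moved from place 2 of 35 to place 20, at 3.29 RPKM. Gsdma and Gsdmc2 moved up, Gsdma from place 34 to 15 and Gsdmc2 from 27 to 16. In controls Nlrp6 and Aifm1 did not differ beyond their spread, with RPKM ranges of 54.2 to 77.2 and 59.2 to 73.8. After cisplatin Bak1 (29.4 to 47.3 RPKM) and Bok (19.0 to 45.3 RPKM) overlapped as well.

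Of the 4 guardians tested, Bcl2l1 and Bcl2a1a rose and Mcl1 and Bcl2 were not called. Bcl2l1, which encodes BCL-XL, stood at 219, 176, 217 and 203 CPM in controls and at 450.5, 619, 505 and 479 CPM after cisplatin. Every treated kidney lay above every control, and the mean rose 2.52-fold from 204 ± 19.98 to 513 ± 73.9 CPM (SD, n = 4 each). Bcl2l1 (ENSMUSG00000007659) lies on chromosome 2 from 152780668 to 152831728 of GRCm38, with a fitted change of 1.33 on the log2 scale (SE 0.16, adjusted p = 0.000145 from edgeR). Mcl1 (ENSMUSG00000038612, chromosome 3 from 95658788 to 95663176), a guardian whose protein is short-lived, was the most abundant of all the genes per length by group mean. In control 5 Mcl1 (65.0 RPKM) stood below Nlrp6 (77.2) and Aifm1 (73.8), and in cisplatin 3 (117 RPKM) below Bcl2l1 (135). The Mcl1 values of 288, 293, 239 and 222 CPM in controls and 457, 399.7, 446 and 521 CPM after cisplatin did not overlap. The difference passed the adjusted p but not the size required for a call (log2 fold change 0.81, SE 0.16, adjusted p = 0.00256 from edgeR).

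Bcl2a1a, an A1 gene that is best known from leukocytes, was low throughout, at 0.0886, 0.399, 0.834 and 0.236 CPM in controls and 1.59, 1.54, 0.659 and 1.35 CPM after cisplatin. Its controls alone were too low for the filter, which it passed through the treated kidneys, so the adjusted p is no support for its direction. The controls rest on 1, 5, 11 and 3 counts, and control 3 lay above cisplatin 4, so the groups overlapped although the gene was called up (log2 fold change 1.69, SE 0.56, adjusted p = 0.0294 from edgeR). Without both cisplatin 1 and 3 it was not called (1.32, adjusted p = 0.149 from edgeR). The call was also lost when control 1, control 2, control 5, cisplatin 1, cisplatin 3 or cisplatin 6 was left out, with adjusted p-values up to 0.0728 from edgeR. Bcl2a1a (ENSMUSG00000102037, chromosome 9 from 88956900 to 88962419) has near-identical copies, Bcl2a1b and Bcl2a1d, between which the counting could have divided reads. Bcl2 itself, the founding guardian, was at 23.8 ± 3.78 CPM in controls and 18.7 ± 6.76 CPM after cisplatin (SD, n = 4 each) and was not called (log2 fold change -0.35, SE 0.27, adjusted p = 0.306 from edgeR).

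Among pore formers, Bak1 (ENSMUSG00000057789, chromosome 17 from 27019810 to 27029009) rose from 40.8, 28.4, 47.7 and 28.1 CPM to 74.05, 114, 75.4 and 70.8 CPM. The groups did not overlap, and cisplatin 3 stood above the other treated kidneys. The change was 2.30-fold (log2 fold change 1.20, SE 0.23, adjusted p = 0.00214 from edgeR), and with 1 library dropped at a time it ranged from 1.002 to 1.35 on the log2 scale. Bok, a pore former thought to act outside the control of the guardians, varied widely, with 19.1, 21.4, 9.40 and 51.3 CPM in controls and 51.5, 34.98, 69.2 and 83.3 CPM after cisplatin. Control 5 lay at the level of cisplatin 1 and above cisplatin 3, and Bok was not called (log2 fold change 1.24, SE 0.47, adjusted p = 0.0505 from edgeR). In 12 of 21 alternatives it was called up, among them leaving out control 5 (1.83, adjusted p = 0.00445 from edgeR), leaving out cisplatin 3 (1.42) or both cisplatin 1 and 3 (1.60, adjusted p = 0.0309 from edgeR), the library set as covariate (1.08, adjusted p = 0.00696 from edgeR) and DESeq2 (1.22, adjusted p = 0.0226). Bax, the partner of Bak1, was in the rows that were not analysed.

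Of the 4 BH3-only genes tested, Bcl2l11 rose, Bid fell and Bad and Bik were not called. Bcl2l11, which encodes BIM, stood at 23.998, 19.7, 24.1 and 21.5 CPM in controls and at 40.9, 43.8, 53.7 and 59.6 CPM in the treated kidneys. It rose 2.22-fold with no overlap (log2 fold change 1.15, SE 0.17, adjusted p = 0.000475 from edgeR; ENSMUSG00000027381, chromosome 2 from 128126038 to 128162547). Within control 1, 2 and 3 against cisplatin 1 and 3 alone, the log2 fold change of Bcl2l11 was 0.85, below the size for a call. Bid, which links death receptors to mitochondria once caspase 8 has cut it, moved the other way, from 134, 98.9, 143 and 163 CPM to 42.7, 46.3, 65.2 and 52.7 CPM. All treated kidneys were below all controls, a mean change from 135 ± 26.95 to 51.7 ± 9.91 CPM (SD, n = 4 each), 2.61-fold lower after cisplatin (log2 fold change -1.38, SE 0.20, adjusted p = 0.000382 from edgeR). Bid (ENSMUSG00000004446, chromosome 6 from 120891930 to 120916853) shares 628 exonic bases with Bcl2l13 on the opposite strand, and whether the counting used strand is not given in the sources used here. Scaled by total library size, which moved the median of all tested genes up by 0.57, Bid fell by 0.82 on the log2 scale and lost its call, as it did in the test against a log2 fold change of 1 (adjusted p = 0.0557 from edgeR).

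Bad and Bik, also BH3-only genes, were not called. Bad was at 28.97 ± 14.3 CPM in controls and 42.1 ± 16.4 CPM after cisplatin, and Bik at 15.9 ± 6.03 and 15.2 ± 4.21 CPM (SD, n = 4 each). For both genes the 3 libraries of the second set, control 5, cisplatin 4 and cisplatin 6, were the highest of all 8, at 50.01 to 57.2 CPM for Bad and 17.3 to 24.9 CPM for Bik. Bcl2l14 and Bcl2l15, family members of less settled function, rose from low levels. Bcl2l14 stood at 4.87, 2.79, 3.64 and 3.70 CPM in controls and 11.8, 12.9, 5.93 and 6.74 CPM after cisplatin (log2 fold change 1.32, SE 0.33, adjusted p = 0.00825 from edgeR). Cisplatin 1 and 3 were about level with each other and above cisplatin 4 and 6, and without them its log2 fold change was 0.76, not a call. Bcl2l15 moved from 1.15, 1.36, 1.90 and 1.49 CPM to 3.50, 3.68, 4.83 and 3.73 CPM (log2 fold change 1.41, SE 0.28, adjusted p = 0.00253 from edgeR), with no overlap. Exons of Bcl2l14 are overlapped by 4933406J09Rik on the opposite strand and those of Bcl2l15 by Gm43064 on the same strand, so their reads cannot be told apart with certainty. Exons of other genes on the opposite strand also overlap those of Bak1, Bad, Bcl2, Casp9, Aifm2, Pycard and Nlrx1.

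**Figure D2:**
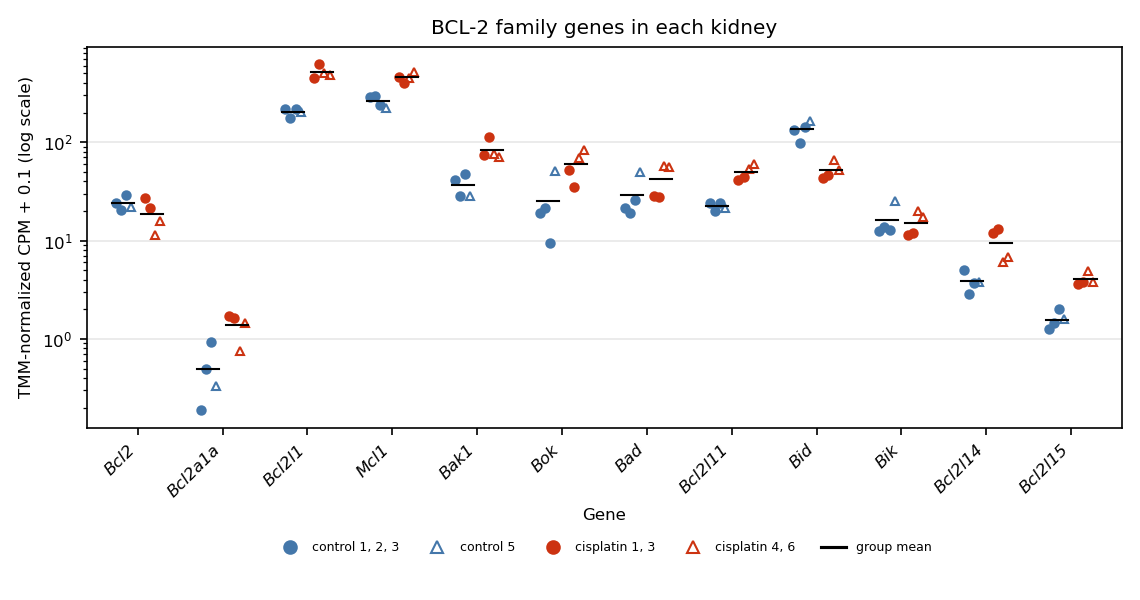
Level of each tested BCL-2 family gene in every kidney, as TMM-normalized CPM plus 0.1 on a log axis. Blue marks are controls and red marks cisplatin, triangles are control 5, cisplatin 4 and cisplatin 6, and black bars are group means. Red lies wholly above blue for Bcl2l1, Mcl1, Bak1, Bcl2l11, Bcl2l14 and Bcl2l15 and wholly below for Bid.

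Of the initiator caspase genes and their regulators, 3 were tested and none was called. Casp9, the initiator that joins the apoptosome, stood at 57.6, 50.4, 53.01 and 67.1 CPM in controls and 41.3, 45.3, 57.9 and 60.3 CPM after cisplatin, and the groups overlapped (log2 fold change -0.16, SE 0.17, adjusted p = 0.480 from edgeR). Cflar, which encodes the caspase 8 inhibitor FLIP, was the most abundant of the 3 genes per length and stood at 199, 244, 223 and 223 CPM and 229, 257, 254 and 269 CPM. The groups overlapped between cisplatin 1 and control 2 (log2 fold change 0.18, SE 0.13, adjusted p = 0.282 from edgeR). Casp8ap2, which encodes FLASH, a protein that also takes part in histone RNA processing, was at 18.6 ± 4.82 and 22.2 ± 5.95 CPM (SD, n = 4 each; log2 fold change 0.26, SE 0.25, adjusted p = 0.433 from edgeR).

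The inflammatory caspases were low. Casp1, which matures interleukin 1 beta and interleukin 18, stood at 2.13, 1.20, 1.44 and 1.81 CPM in controls and 2.37, 0.770, 1.17 and 2.38 CPM after cisplatin. The means were 1.64 ± 0.408 and 1.67 ± 0.826 CPM (SD, n = 4 each), and the difference was far within that spread (log2 fold change 0.03, SE 0.42, adjusted p = 0.964 from edgeR). These values rest on 14 to 52 counts a library. Casp12, a relative linked to stress of the endoplasmic reticulum, was at 3.28, 3.59, 1.21 and 2.28 CPM and 8.91, 5.33, 2.05 and 5.15 CPM. Cisplatin 4 lay within the controls, and Casp12 was not called (log2 fold change 1.06, SE 0.47, adjusted p = 0.0902 from edgeR). Without cisplatin 4 it was called, with a log2 fold change of 1.32 (adjusted p = 0.0272 from edgeR), and likewise with the library set as covariate (1.16, adjusted p = 0.0375 from edgeR) and in the first set alone (1.35, adjusted p = 0.0307 from edgeR).

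Casp14 (ENSMUSG00000005355, chromosome 10 from 78711991 to 78718294 on the minus strand), a caspase of the cornifying epidermis that processes filaggrin rather than driving cell death, had 0 counts in all 4 controls. The treated kidneys had 52, 52, 85 and 47 counts, or 2.37, 2.86, 6.22 and 3.73 CPM, a mean of 3.79 ± 1.71 CPM (SD, n = 4). Against a level of 3 counts in a control library, 0.266 CPM at most, the treated mean was at least 14.3-fold higher (adjusted p = 0.000244 from edgeR). Casp14 passed the filter only through the treated kidneys, so its direction was fixed in advance and the adjusted p is no support for it. At 1.58 RPKM after cisplatin Casp14 was nevertheless place 25 of the 35 genes per length.

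**Figure D3:**
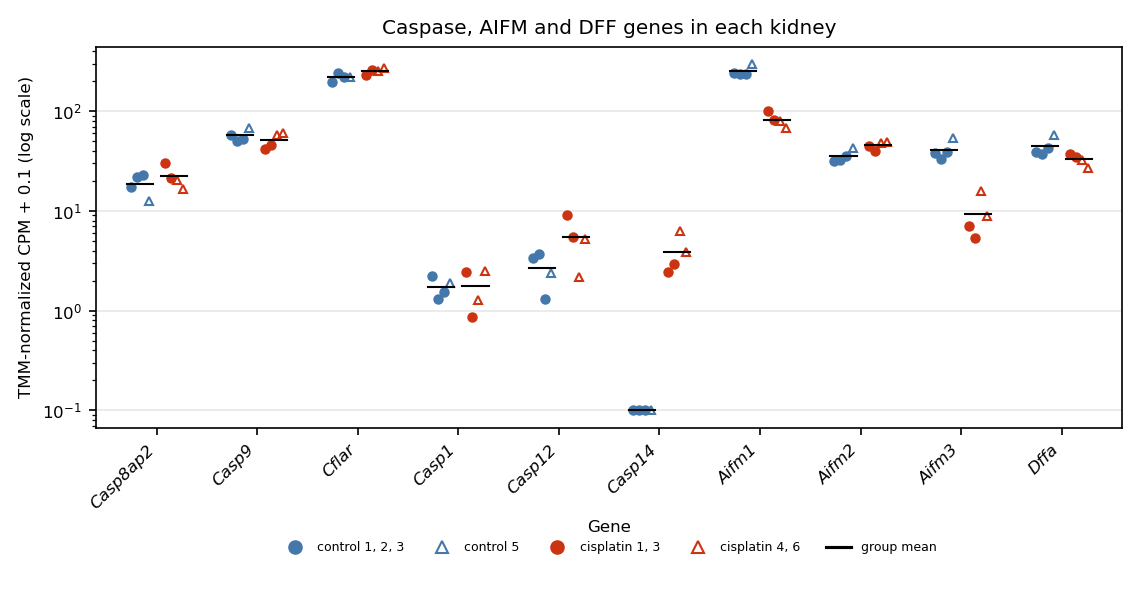
Level of each tested caspase, caspase regulator, Aifm and Dff gene in every kidney, as TMM-normalized CPM plus 0.1 on a log axis, with marks as for the BCL-2 family. Casp14 leaves the bottom of the axis where its controls have 0 counts, and Aifm1, Aifm3 and, by a narrow gap, Dffa lie wholly below.

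None of the 4 tested genes of mitochondrial release and DNA cutting was called up, and 2 fell. Aifm1 (ENSMUSG00000036932, chromosome X from 48474944 to 48513563) encodes the apoptosis-inducing factor, a flavoprotein needed for the respiratory chain that moves to the nucleus in dying cells. It fell from 242, 237, 239 and 296 CPM to 101, 80.7, 79.9 and 68.2 CPM, 3.07-fold, with all treated kidneys below all controls (log2 fold change -1.62, SE 0.16, adjusted p = 5.25e-05 from edgeR). Aifm3 (ENSMUSG00000022763, chromosome 16 from 17489691 to 17507482), a related mitochondrial protein, fell further, from 38.3, 32.8, 39.2 and 53.9 CPM to 7.004, 5.28, 15.6 and 8.88 CPM. That is a 4.48-fold fall in the fitted mean (log2 fold change -2.16, SE 0.33, adjusted p = 0.000557 from edgeR), and the highest treated kidney, cisplatin 4 at 15.6 CPM, was below the lowest control at 32.8 CPM. Aifm2, which encodes FSP1, a suppressor of ferroptosis that reduces coenzyme Q, was not called at 35.4 ± 5.07 and 45.6 ± 4.42 CPM (SD, n = 4 each; log2 fold change 0.36, SE 0.16, adjusted p = 0.0792 from edgeR). Dffa, which encodes ICAD, the chaperone and inhibitor of the apoptotic nuclease, was at 39.3, 37.2, 42.9998 and 57.3 CPM in controls and 36.98, 34.8, 32.4 and 27.1 CPM after cisplatin. The treated kidneys lay below the controls by a narrow gap, and the adjusted p missed the threshold (log2 fold change -0.43, SE 0.18, adjusted p = 0.0768 from edgeR).

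Of 4 tested gasdermin genes 3 were called up, each from a very low level. Gsdma (ENSMUSG00000017204, chromosome 11 from 98664351 to 98677708), the gasdermin of skin and upper gut epithelium, had 0, 2, 0 and 3 counts in controls and 180, 140, 207 and 235 counts after cisplatin, or 8.19, 7.70, 15.2 and 18.6 CPM. All treated kidneys were far above the controls, with a mean of 12.4 ± 5.36 CPM (SD, n = 4). The 5 control counts and 762 treated counts gave a ratio of 114 after scaling, with a 95% exact interval from 48.7 to 352 that covers counting error only (log2 fold change 6.83, SE 0.69, adjusted p = 5.16e-05 from edgeR). Gsdma too passed the filter only through the treated kidneys, so the adjusted p is no support for its direction. With 1 library dropped at a time the log2 fold change of Gsdma ran from 6.41 to 7.62, lowest without control 3 and highest without control 5. With the replicate number as a block it was 9.85. The block fit rests on libraries 1 and 3 of each group, and controls 1 and 3 had 0 counts, so 9.85 is not a measured fold. Cisplatin 4 and 6 stood above cisplatin 1 and 3, with means of 16.9 and 7.94 CPM of Gsdma.

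Gsdmc2 and Gsdmc3 lie next to each other on chromosome 15 (63824346 to 63845177 and 63857724 to 63878558) and belong to a cluster of similar genes that could share reads. Gsdmc2 (ENSMUSG00000056293) stood at 1.24, 1.20, 0.455 and 2.12 CPM in controls and at 9.60, 17.9, 12.9 and 0 CPM after cisplatin. Gsdmc3 (ENSMUSG00000055827) showed the same shape, with 0.620, 1.04, 0.379 and 1.97 CPM in controls and 6.50, 16.4, 9.005 and 0 CPM after cisplatin. For both genes cisplatin 6 had 0 counts while the other 3 treated kidneys were above all controls. Both were called (log2 fold changes of 3.01, SE 1.04, and 2.99, SE 1.06; adjusted p = 0.0366 and 0.0399 from edgeR). Without both cisplatin 1 and 3 neither was called (2.38, adjusted p = 0.123, and 2.19, adjusted p = 0.151, from edgeR). The call of Gsdmc2 was lost when any single library other than cisplatin 6 was left out and that of Gsdmc3 when any other than control 5 or cisplatin 6 was, with adjusted p-values up to 0.102 from edgeR.

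Gsdme, which encodes a gasdermin that caspases of the apoptotic route can cleave, was the most abundant of the tested gasdermin genes per length in controls at 4.44 RPKM. Gsdmd, Gsdma2 and Gsdmc4 stood in the rows not analysed. It stood at 59.9, 67.8, 56.04 and 42.4 CPM in controls and 38.5, 32.8, 20.9 and 29.3 CPM after cisplatin, with every treated kidney below every control. The adjusted p passed but the size did not (log2 fold change -0.89, SE 0.22, adjusted p = 0.00739 from edgeR). Gsdme was called down without control 5 (-1.02), without cisplatin 1 (-1.04) and without both cisplatin 1 and 3 (-1.17). Scaled by total library size its log2 fold change was -0.32. After cisplatin Gsdma at 4.56 and Gsdmc2 at 4.36 RPKM were above Gsdme at 2.38 RPKM on average, though the RPKM of Gsdmc2 and Gsdmc3 was 0 in cisplatin 6.

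Among inflammasome genes Nlrp6 alone was called, and it had the lowest fold change of all 35 genes. Nlrp6 (ENSMUSG00000038745, chromosome 7 from 140920902 to 140929192), a sensor best known from intestinal epithelium, stood at 275, 324, 332 and 392 CPM in controls. After cisplatin it stood at 6.09, 5.22, 24.7 and 30.9 CPM, with the highest treated kidney far below the lowest control. The fitted fall was 19.9-fold (log2 fold change -4.32, SE 0.58, adjusted p = 0.000278 from edgeR), and without cisplatin 1 and 3 the log2 fold change was -3.57. With the library set as covariate it was -5.08, in the first set alone -5.83 and with the replicate number as a block -5.73. In both pairs of treated kidneys the level was far below controls, at a mean of 5.66 CPM in cisplatin 1 and 3 and 27.8 CPM in cisplatin 4 and 6.

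The other sensors and the adaptor were not called. Nlrp3, the sensor most often linked to sterile injury, was at 2.30, 1.75, 1.52 and 1.65 CPM in controls and 3.09, 1.98, 0.878 and 1.19 CPM after cisplatin, from 12 to 68 counts a library. Its means of 1.81 ± 0.345 and 1.79 ± 0.987 CPM (SD, n = 4 each) differed by far less than the spread (log2 fold change 0.01, SE 0.41, adjusted p = 0.989 from edgeR). Pycard, which encodes ASC, stood at 10.01, 9.17, 11.6 and 13.7 CPM and 24.1, 22.7, 17.1 and 12.8 CPM. Cisplatin 6 lay below control 5, and the difference passed the adjusted p but not the size (log2 fold change 0.79, SE 0.24, adjusted p = 0.0218 from edgeR). In the first library set alone Pycard was called up (1.13, adjusted p = 0.000458 from edgeR).

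Nlrc4, the sensor that works with the NAIP proteins against bacterial flagellin and secretion systems, was at 9.03, 13.5, 5.69 and 9.99 CPM in controls and 1.50, 1.15, 6.003 and 6.90 CPM after cisplatin. Cisplatin 1 and 3 were below all controls and cisplatin 4 and 6 were within them, and the group difference was not called (log2 fold change -1.31, SE 0.57, adjusted p = 0.0827 from edgeR). Without cisplatin 6 it was called (-1.75, adjusted p = 0.0405 from edgeR). It was also called down with the library set as covariate (-2.01, adjusted p = 0.00588 from edgeR), in the first set alone (-2.87, adjusted p = 0.000739 from edgeR) and by DESeq2 (-1.32, adjusted p = 0.0415). Naip2 was at 6.38, 5.74, 6.83 and 7.23 CPM and 6.37, 4.51, 1.83 and 4.92 CPM (log2 fold change -0.56, SE 0.35, adjusted p = 0.212 from edgeR), and Naip5 at 2.75, 2.39, 3.87 and 1.97 CPM and 6.004, 6.16, 3.29 and 3.25 CPM (log2 fold change 0.77, SE 0.34, adjusted p = 0.0869 from edgeR). Naip6 stood at 1.59, 3.03, 2.20 and 0.629 CPM and 1.91, 2.75, 0.952 and 1.03 CPM (log2 fold change -0.15, SE 0.51, adjusted p = 0.830 from edgeR). These 3 similar genes lie side by side on chromosome 13 and could share reads, and in each of them the groups overlapped. Of the other NLR genes, Nlrx1, whose product sits on mitochondria, was at 29.4, 22.2, 22.6 and 35.9 CPM and 14.7, 14.7, 23.7 and 24.6 CPM (log2 fold change -0.50, SE 0.25, adjusted p = 0.120 from edgeR). Nlrc3 was at 3.65 ± 1.03 and 3.35 ± 0.436 CPM (SD, n = 4 each; log2 fold change -0.12, SE 0.28, adjusted p = 0.755 from edgeR).

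**Figure D4:**
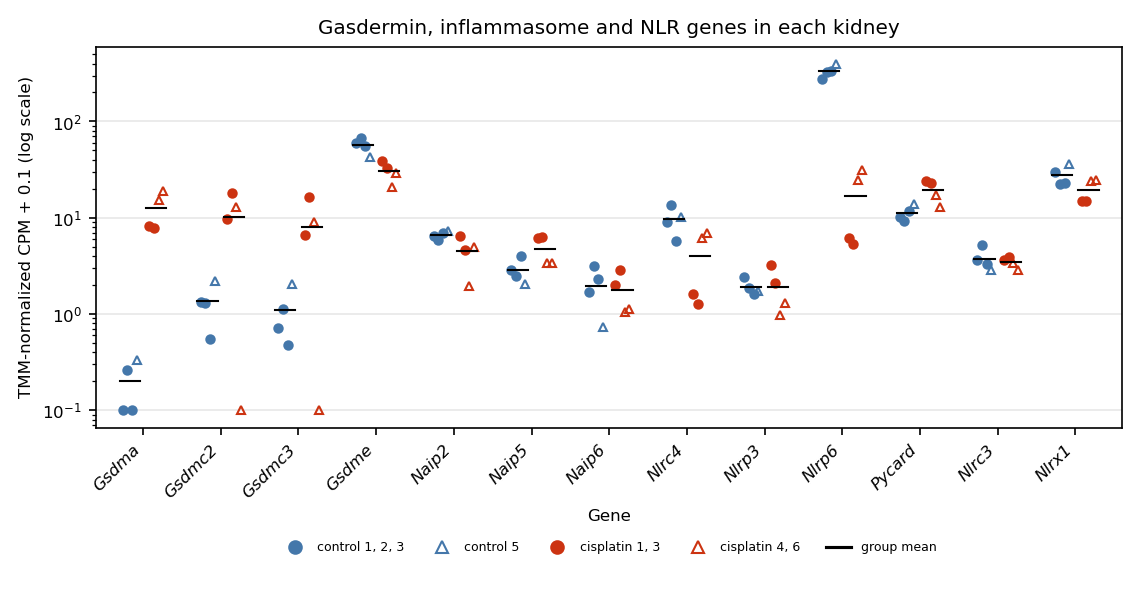
Level of each tested gasdermin, inflammasome and other NLR gene in every kidney, as TMM-normalized CPM plus 0.1 on a log axis, with marks as for the BCL-2 family. Gsdma lies wholly above its controls, Gsdmc2 and Gsdmc3 drop to 0 counts in cisplatin 6, and Nlrp6 falls from 275 CPM or more in every control to 30.9 CPM or less in every treated kidney.

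The 4 genes that fell were set beside markers of the proximal tubule. All 10 markers on that list fell (Lrp2, Cubn, Slc34a1, Slc5a2, Slc5a12, Slc22a6, Slc22a8, Slc7a13, Aqp1 and Miox), with log2 fold changes from -6.40 to -1.82 and a median of -4.41. As a share of the control mean, their summed level was at 3.37, 2.21, 6.17 and 8.05% in the 4 treated kidneys. Nlrp6 stood at 1.84, 1.58, 7.45 and 9.34% of its control mean and, like the sum, was higher in cisplatin 4 and 6 than in cisplatin 1 and 3. Aifm3 was at 17.1, 12.9, 37.99 and 21.6%, Aifm1 at 39.8, 31.8, 31.5 and 26.9% and Bid at 31.6, 34.3, 48.3 and 39.02%, all above the summed marker level in each treated kidney. Single markers differed from the sum, and Aqp1, the highest of them in each treated kidney, was at 31.7, 11.1, 40.1 and 30.5%. The sum of the thick ascending limb and distal markers was at 48.7, 28.9, 12.8 and 5.87%. The part of the tubule markers in these falls was not tested.

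**Figure D5:**
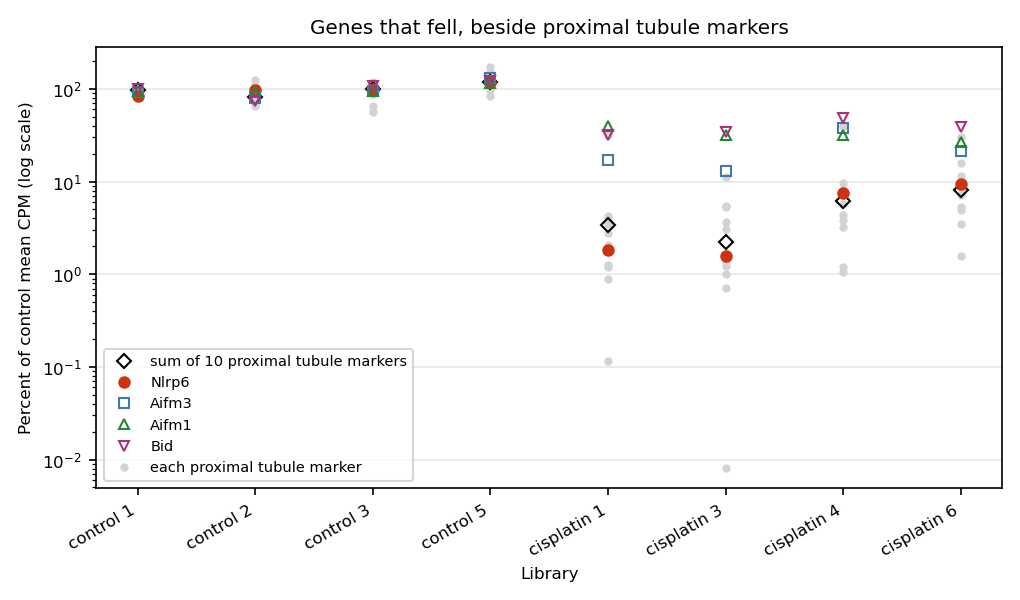
Level of Nlrp6, Aifm3, Aifm1 and Bid in each library as a percentage of the control mean, on a log axis, beside 10 proximal tubule markers (grey) and their sum (black diamonds). In the treated kidneys Nlrp6 at 1.58 to 9.34% lies near the marker sum at 2.21 to 8.05%, and Aifm3, Aifm1 and Bid lie above the sum. The highest single marker there, Aqp1, lies at 11.1 to 40.1%.

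Marker genes of other cells moved too. In the thick ascending limb and distal list 3 of 4 tested genes fell (Umod, Slc12a3 and Calb1), and the summed level was 7515 to 11427 CPM in controls and 534 to 4425 CPM after cisplatin. Of 3 collecting duct markers Aqp2 rose and Slc4a1 fell, with sums of 423 to 778 and 492 to 1053 CPM, and none of 4 podocyte and endothelial markers was called (495 to 974 and 476 to 769.8 CPM). In the neutrophil list 4 of 5 tested genes rose (S100a8, S100a9, Retnlg and Cxcr2), and the sum over the list went from 4.07 to 5.82 CPM to 13.4 to 24.98 CPM, with Mpo at 0 counts in all libraries. Of 8 macrophage and monocyte markers Itgam and Cd14 rose and Ccr2 and Cx3cr1 fell, with a sum of 86.5 to 151 CPM and then 131 to 191 CPM. Cd8a and Nkg7 of 3 tested T and NK markers fell (7.47 to 13.7 CPM and then 0.952 to 3.27 CPM), Cd79a of 2 B cell markers rose (2.04 to 2.88 CPM and then 4.46 to 11.5 CPM), and Ptprc of 3 general leukocyte markers fell (95.2 to 114 CPM and then 43.05 to 98.3 CPM). Of 42 tested markers 8 were called up and 19 down, beside 19.2% and 15.7% of all tested genes. Without cisplatin 1 and 3 the markers called down went from 19 to 23, and 8 were called up as before. Over all tested genes the calls down then went from 1434 to 1899. The added markers were, with their log2 fold changes, Slc12a1 (-3.64, adjusted p = 0.000815 from edgeR), Kdr (-1.01, adjusted p = 0.0412 from edgeR), Cd4 (-2.57, adjusted p = 0.00492 from edgeR) and Cd3g (-3.06, adjusted p = 0.00550 from edgeR). Cd3g had not passed the filter with all libraries. Without cisplatin 1 and 3 the filter requires fewer libraries, so a gene low after cisplatin can pass through controls alone. The adjusted p of Cd3g is therefore not taken as support for its direction. Bcl2a1a, Casp1, Nlrp3, Pycard and the Naip genes are also expressed by leukocytes, and the part of these cells in their values was not tested.

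Genes that work with these families but carry other names were read from the same fit. From a list drawn up for this, 32 genes could be tested and 31 stood in the rows not analysed, including Bax, Trp53, Ripk3, Fadd, Cycs, Il1a and Il33. After cisplatin 12 of the 32 were called up and 2 down, again against 19.2% and 15.7% of all tested genes. Without cisplatin 1 and 3 the counts were 10 and 3. Over all tested genes the calls then went from 1754 to 1984 up and from 1434 to 1899 down. Both tested BH3-only genes of the list, which are known p53 targets, rose. Bbc3, which encodes PUMA, stood at 2.57, 2.87, 3.56 and 6.05 CPM in controls and 28.97, 37.4, 58.9 and 62.9 CPM after cisplatin (log2 fold change 3.64, SE 0.36, adjusted p = 4.60e-05 from edgeR). Pmaip1, which encodes NOXA, stood at 21.3, 28.1, 28.2 and 16.1 CPM and 162, 150.5, 241 and 306 CPM (log2 fold change 3.20, SE 0.29, adjusted p = 2.82e-05 from edgeR). In both the treated kidneys were far above all controls. Trp53inp1, a stress-induced p53 target, went from 83.8 ± 23.002 to 799.8 ± 239 CPM (SD, n = 4 each; log2 fold change 3.25, SE 0.30, adjusted p = 3.18e-05 from edgeR).

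Apaf1, the scaffold on which Casp9 is activated, rose from 11.6, 11.5, 12.8 and 10.7 CPM to 54.7, 60.8, 49.5 and 43.5 CPM (log2 fold change 2.16, SE 0.16, adjusted p = 1.05e-05 from edgeR), while Casp9 itself was not called. Birc5 (survivin) rose with a log2 fold change of 1.32, though its call was lost without control 2 (adjusted p = 0.0512 from edgeR) and without cisplatin 6 (0.84), as well as in the first library set alone (0.66, adjusted p = 0.0636 from edgeR) and with the replicate block (0.61, adjusted p = 0.138 from edgeR). Birc6, a very large inhibitor of apoptosis, fell (-1.29), a call lost under total library size (-0.70, adjusted p = 0.0830 from edgeR) and, by size, with the replicate block (-0.95). Xiap was not called (0.04). Htra2 and Endog, both released from mitochondria, had values of 0.23 and -0.48 and were not called.

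Of the death receptors and their adaptors, Fas rose from 13.3 ± 1.01 to 31.5 ± 2.23 CPM (SD, n = 4 each; log2 fold change 1.24, SE 0.15, adjusted p = 0.000144 from edgeR). Pidd1 and Cradd encode the 2 scaffold proteins of the PIDDosome, a complex that activates the caspase encoded by Casp2, and they went in opposite directions. Pidd1 stood at 12.2, 10.2, 13.5 and 10.4 CPM in controls and 52.7, 71.2, 97.8 and 74.7 CPM after cisplatin (log2 fold change 2.68, SE 0.22, adjusted p = 1.47e-05 from edgeR), and Cradd at 31.5, 32.1, 34.5 and 22.5 CPM and 9.82, 12.5, 10.03 and 7.53 CPM (log2 fold change -1.59, SE 0.21, adjusted p = 0.000262 from edgeR). Neither gene's groups overlapped. Tnfaip3, which encodes A20, a brake on NF-kB signalling and cell death, rose as well (log2 fold change 2.25, SE 0.15, adjusted p = 4.51e-06 from edgeR). Ripk1, Tradd, Tnfrsf21 and Tnfrsf25 were not called, with log2 fold changes of -0.36, 0.36, -0.84 and -0.90. Tnfrsf21 was called down without cisplatin 1 and 3 (-1.12, adjusted p = 0.00301 from edgeR) and Tnfrsf25 with the library set as covariate (-1.07, adjusted p = 0.00385 from edgeR).

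Around the inflammasome, Txnip, whose product can bind NLRP3, rose from 518 ± 107 to 1231 ± 94.1 CPM (SD, n = 4 each; log2 fold change 1.25, SE 0.20, adjusted p = 0.000644 from edgeR). The channel gene Panx1 (1.56) and the guanylate-binding protein genes Gbp2 (1.18) and Gbp3 (1.24, groups overlapping, call lost without control 2 or control 5) rose. Without cisplatin 1 and 3 neither Gbp2 (0.93) nor Gbp3 (0.75, adjusted p = 0.145 from edgeR) was called. The cytokines that the inflammasome matures were not called. Il1b stood at 3.19, 3.75, 3.72 and 2.83 CPM in controls and 4.46, 2.86, 4.32 and 4.12 CPM after cisplatin (log2 fold change 0.22, SE 0.26, adjusted p = 0.504 from edgeR), and Il18 at 3.10, 3.03, 3.11 and 2.20 CPM and 1.41, 1.59, 2.78 and 1.27 CPM (log2 fold change -0.70, SE 0.33, adjusted p = 0.103 from edgeR). Aim2 (-0.22), Nek7 (-0.59), Ninj1 (0.12) and Hmgb1 (-0.19) were not called either, nor was Card9 at 0.85, which passed the adjusted p (0.0259 from edgeR) but not the size. Of the viral and interferon arm, Adar, Eif2ak2, Mb21d1 and Irf8 were tested and none was called, with log2 fold changes between 0.10 and 0.75. With the library set as covariate Eif2ak2 was called up (1.03, adjusted p = 0.000698 from edgeR).

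Within the cisplatin group the 35 genes were compared between the pair of libraries 1 and 3 and the pair 4 and 6. In 13 genes both values of the first pair were higher, in 14 both values of the second pair were, and in 8 they overlapped. Over all tested genes both values of the first pair were higher in 36.2% and both values of the second pair in 36.7%, so the 35 genes lay near the background. Higher in cisplatin 1 and 3 were, for example, Pycard (means of 23.4 and 14.95 CPM) and Nlrp3 (2.54 and 1.03). Higher in cisplatin 4 and 6 were Nlrc4 (1.33 and 6.45 CPM), Bad (27.9 and 56.3) and Casp14 (2.61 and 4.97). The pairs were seen in the data, with 2 libraries each, and were not tested. Within this group the pairs differ at once in Y-linked counts and in library set, and these cannot be told apart.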

How the data were processed

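Counts per gene were deposited by the authors as whole numbers without normalization, made from reads trimmed with fastp and aligned to GRCm38 with HISAT2 per the labels. The counter, its annotation release and its strand setting are not given in the sources used here, and the labels and the study's methods name different library kits. The deposited table names 8 libraries. Its 17835 rows with 10 values, 2 of them in unnamed columns, were not used, nor were the 2 unnamed columns in any step. A gene length in the same table was used for RPKM.

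Groups came from the labels. The fit used edgeR 4.0.16 in R 4.3.3 (default expression filter, TMM, quasi-likelihood test, Benjamini-Hochberg adjustment over 9141 genes), with no covariate and the thresholds of the study's methods, which name DESeq2. The standard error is the log2 fold change divided by the square root of F. Where all controls had 0 counts, a lower bound of the fold was computed against 3 counts. Intervals and this floor cover counting error only. Labels do not say that libraries came from separate cages or days, so p-values measure the spread between these mice.

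By rule, the genes of these names given with full values are those called, the most abundant of each role per length, and the tested caspase, gasdermin and inflammasome genes. Bok and Dffa were added after their values were seen. Genes of the pathway list were named when called, several by their log2 fold change alone, and the uncalled ones were added likewise. A few genes of these names or of the pathway list stayed in the fit but are not reported here, and no count of genes given here includes them except counts over all tested genes. The genes, roles and lists were chosen with earlier results of these data known, and the AP-1, HNF1 and HNF4 motifs after these values were seen. Alternatives were DESeq2 1.42.0, other scalings and filters, testing against a minimum log2 fold change of 1, the library set as covariate, libraries left out and the replicate number as a block. Promoter sequences are from RefSeq (GRCm38.p6), and gene overlaps were read from GENCODE M21, where all 49 genes were found and 46 had the same coordinates.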

Additional observations from a re-analysis of the deposited data

Results flagged for a closer look

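In 4 of 69 groups of 4 libraries, 1 library lay far from the other 3, with a gap to its nearest neighbour past Dixon's critical value for the group's range. Chance gives about 1 in 20 such groups. Bak1 stood at 114 CPM in cisplatin 3 and at 70.8 to 75.4 CPM in the other treated kidneys, and without cisplatin 3 its log2 fold change was 1.002. Bik stood at 24.9 CPM in control 5 and at 12.4 to 13.6 CPM in the other controls. Aifm1 stood at 296 CPM in control 5 and at 237 to 242 CPM in the other controls, and without control 5 its log2 fold change was -1.55. Bcl2l15 stood at 4.83 CPM in cisplatin 4 and at 3.50 to 3.73 CPM in the other treated kidneys. Control 5 and cisplatin 4 belong to the second library set.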

How the results depend on the processing

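Over 21 alternatives the 35 genes gave 3 to 16 calls up and 3 to 5 down. Nlrp6, Aifm1 and Aifm3 were called down in all of them, and Bcl2l1 was called up in all of them. The test against a log2 fold change of 1 gave 3 calls up among the 35 genes, and 885 up and 803 down over all genes. It ended 8 of the 14 calls, those of Bak1, Bcl2a1a, Bcl2l11, Bcl2l14, Bcl2l15, Bid, Gsdmc2 and Gsdmc3. DESeq2 with no filter lost Gsdmc3 (adjusted p = 0.0505). Scaling by total library size gave 3174 up and 803 down over all genes and 16 up and 3 down among the 35, with 1 of the other pathway genes down. It called Bad, Bok, Casp12, Mcl1, Naip5 and Pycard in addition and lost Bid. At least 10 counts in every library gave 1101 up over all genes, 6 up among the 35 genes and, by construction, left out Bcl2a1a, Casp14, Gsdma, Gsdmc2 and Gsdmc3. Total library size turned the sign of 8 genes that were not called: Bcl2 (0.24), Bik (0.49), Casp9 (0.40), Dffa (0.15), Naip2 (0.024), Naip6 (0.42), Nlrc3 (0.44) and Nlrx1 (0.049). DESeq2 on the same genes, DESeq2 with no filter and DESeq2 size factors turned Casp1 (-0.011, -0.011 and -0.012) and Nlrp3 (-0.039, -0.039 and -0.042). Without cisplatin 1 and 3 the signs of Bik (0.24), Casp8ap2 (-0.013), Casp9 (0.061) and Nlrp3 (-0.79) turned. The library set as covariate turned Casp1 (-0.0077) and Naip6 (0.18), and the first set alone turned Casp1 (-0.053). With 1 library dropped at a time, the sign turned for Bik (-0.24 to 0.22), Casp1 (-0.20 to 0.25), Naip6 (-0.53 to 0.18), Nlrp3 (-0.41 to 0.22) and Nlrc3 (-0.24 to 0.082), and of the 14 calls 11 to 13 remained, the ones lost being Bcl2a1a, Gsdmc2 and Gsdmc3. The cause of these differences was not tested. At most 11 counts a control library stood behind Bcl2a1a, which limits its precision.

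Replicate numbers 1 and 3 occur in both groups, but with 2 such pairs the numbers were not taken to pair the mice. Deviations of same-numbered libraries correlated across genes with r of 0.249 and 0.279, against 0.148 to 0.355 for the differently numbered pairs among the same libraries and control 2. With the replicate number as a block, 13 of the 14 calls remained, Bcl2l11 (0.82) was not called, and Bok, Casp12, Nlrc4 and Pycard were. The block turned the signs of Casp1 (-0.29), Naip6 (0.29) and Nlrc3 (0.13), and gave 1710 genes up and 1404 down over all genes.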
